A study of Danio rerio with 6 samples.

Results

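The gene gja1b (Ensembl ENSDARG00000041799), which encodes the zebrafish gap junction protein Connexin43 (Cx43), was followed in the distal and proximal parts of regenerating caudal fins. It was taken by its Ensembl identifier and is 1 of the 31901 genes listed in the count files; the symbol table used here calls it GJA1, without the copy letter. All fish carried the shha:eGFP transgene, a green fluorescent reporter of shha, and were sampled 96 hours after amputation. The outgrowth was divided along its length, with the reporter-bearing tip taken as distal and the rest as proximal. There were 3 distal and 3 proximal samples, numbered 2, 3 and 4 in both regions, and each pooled tissue from 4 fins. Age, strain background and the link between samples of equal number are not given in the sources used here, so the p-values measure the spread between these pooled samples.

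Gap junctions are clusters of channels that join the cytoplasm of touching cells and pass ions and small molecules between them. Each channel is built from connexins, a family of membrane proteins encoded by many genes. In zebrafish, mutations in gja1b underlie the short fin mutants, whose fin rays have short bony segments, and Cx43 is known from the dividing blastema and from the skeletal cells of regenerating rays. Work on fin regeneration has placed the secreted guidance molecule Sema3d and the matrix linker Hapln1a downstream of Cx43, and the cohesin factors Esco2 and Smc3 upstream of it.

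The labelled regions carried the difference that the dissection was based on. The identifier named SHH that had reads in every library (ENSDARG00000068567; the table does not say which copy it is) had 17.7 ± 3.26 counts per 1000000 gene-assigned reads (CPM) distally and 5.95 ± 0.707 proximally (mean ± SD, n = 3 each). The transcription factor gene gli1, a response gene of the Hedgehog pathway, had 53.4 ± 7.85 against 22.2 ± 0.617 CPM. Among 17 tested genes listed for the distal blastema and distal epidermis, 16 were higher in distal tissue at an adjusted p under 0.05 (edgeR quasi-likelihood test). Over all 18455 tested genes, that test called 15.3% as distal-high and 14.4% as proximal-high, or 29.7% in either direction. The libraries held between 20113859 and 23629159 gene-assigned reads.

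gja1b was abundant in both regions, and the 2 regions could not be told apart by it. The distal samples 2, 3 and 4 had 3707, 4102 and 1958 gja1b reads, which is 173, 184 and 97.3 CPM. The proximal samples 2, 3 and 4 had 2803, 3729 and 2003 reads, which is 119, 170 and 93.2 CPM. The ranges of the regions overlapped, and both samples numbered 4 were the lowest of their region. In pieces of whole tissue such values cannot separate fewer cells of a type from less RNA per cell.

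The mean level was 151 ± 46.9 CPM distally and 127 ± 39.4 CPM proximally (SD over 3 samples each). The difference of 23.7 CPM was smaller than either SD (two-sided exact permutation p = 0.5, where 0.1 is the smallest p that 3 against 3 samples allow; 0.75 after Benjamini-Hochberg adjustment over 3 such tests). After TMM scaling, which corrects for the composition of the libraries, the edgeR quasi-likelihood test gave a log2 fold change of 0.13 for distal over proximal (SE 0.26, 95% interval -0.47 to 0.73, adjusted p = 0.745). That interval spans a level in distal tissue from 0.724 to 1.66 times the proximal one.

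**Figure D1:**
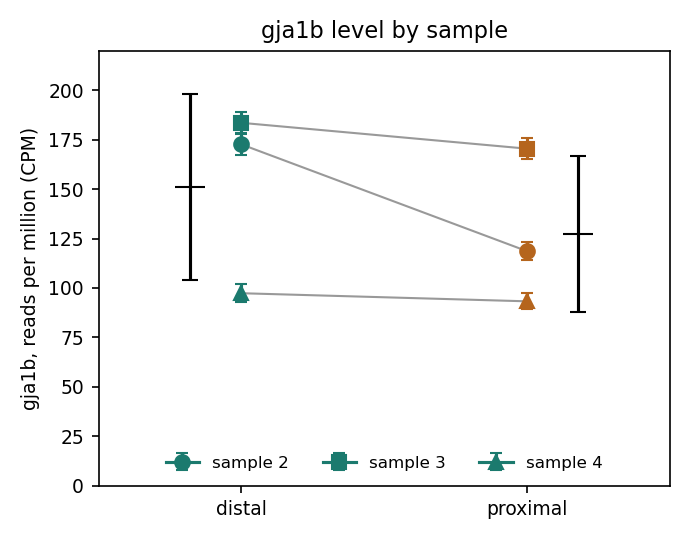
gja1b reads per 1000000 gene-assigned reads (CPM, vertical axis) in the distal and proximal samples, with same-numbered samples joined by grey lines. Colored bars are 95% Poisson intervals of counting error and black bars are the mean ± SD of 3 samples; the samples numbered 4 lie lowest, at 97.3 and 93.2 CPM.

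Counting error was a small part of this spread. The 95% Poisson intervals were 167 to 178 CPM for distal sample 2 and 93.1 to 102 CPM for distal sample 4, and those of the other libraries were similarly narrow. The counting coefficient of variation was at most 2.26%, against 31.0% between distal and 30.9% between proximal samples. The fitted biological coefficient of variation of gja1b was 23.2%, compared with 18.5% as the common value over all tested genes.

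Much of the spread followed the sample number rather than the region. Within pairs of equal number, the distal CPM was 1.46 times the proximal CPM in pair 2, 1.08 times in pair 3 and 1.04 times in pair 4. After TMM scaling these ratios were 1.36, 1.01 and 0.931, so that pair 4 turned to the other side. With the number as a block, the log2 fold change was 0.12 (SE 0.10, 95% interval -0.11 to 0.34, edgeR adjusted p = 0.372). The block narrowed the interval to between 0.929 and 1.27 times the proximal level without bringing a call, in a fit where 48.4% of all tested genes were called. The fitted coefficient of variation of gja1b fell to 9.47% in that fit.

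The contrast between sample numbers was larger. A comparison of number 4 with the mean of numbers 2 and 3, in a model that also held the region, was chosen after these values were seen. It gave a log2 difference of -0.68 for gja1b (SE 0.11, 95% interval -0.93 to -0.44, edgeR adjusted p = 0.0017), or 0.623 times the level in the other numbers. The same direction held in both regions. The distal sample 4 had 0.547 times and the proximal sample 4 had 0.645 times the mean CPM of its region's other samples. After TMM scaling these ratios were 0.556 and 0.689. Those other samples also differed, with sample 3 at 1.06 times the CPM of sample 2 distally and 1.44 times proximally. In the fitted comparison of number 4 with the others, 8.53% of all tested genes were called lower in number 4 and 8.06% higher. A more negative difference than that of gja1b was seen in 6.28%. The SE and p-values of this comparison measure the spread left after region and number are fitted. They do not measure the spread between numbers. The labels do not say what the numbers stand for. Of 10 tested osteoblast lineage genes, 3 (sp7, ENTPD5 and PANX3) were also lower in number 4 and 0 higher. In distal samples 2, 3 and 4 the summed level of the whole osteoblast list was 3056, 3796 and 3406 CPM. In proximal samples 2, 3 and 4 it was 7210, 6643 and 4876 CPM. The COL10A1 identifiers made up most of this sum, and neither was called in number 4 (edgeR adjusted p = 0.452 and 0.297). The part of these genes in the result was not tested.

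By reads per library, gja1b ranked 1020 in distal and 1074 in proximal tissue among all 31901 listed genes when ordered by mean CPM. Single libraries placed it between rank 773 in proximal sample 3 and rank 1713 in distal sample 4. These ranks are on reads and are not divided by transcript length, so long transcripts gain in them. By fold change the gene stood in the middle of the transcriptome: 37.8% of tested genes had a higher log2 fold change, and 77.9% had a larger one in absolute size.

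**Figure D2:**
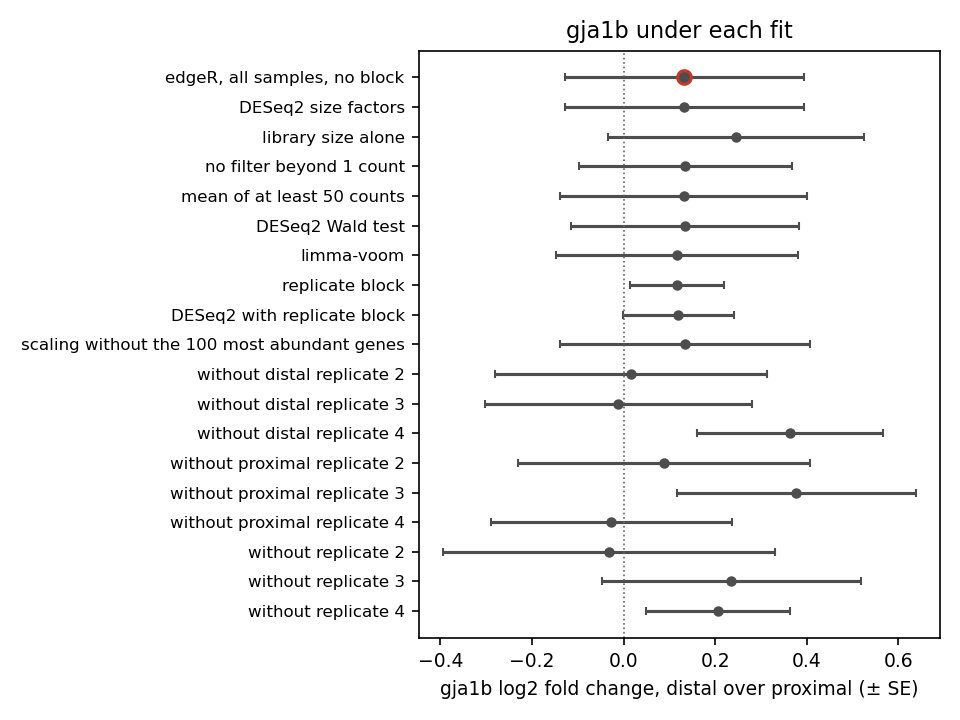
Log2 fold change of gja1b, distal over proximal (horizontal axis, bars are ± SE), under the unblocked edgeR fit marked in red and 18 alternative fits (vertical axis). All values lie between -0.03 and 0.38, with 3 below 0.

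The other connexins set gja1b in its family. The symbol table names 36 connexin identifiers in the files, of which 33 had at least 1 read, 16 passed the filter on low counts and 12 reached a mean of 1 CPM. gja1b held the most reads of the family. It made up 40.7%, 39.6% and 27.5% of connexin reads in distal samples 2, 3 and 4 and 28.1%, 36.1% and 25.3% in proximal samples 2, 3 and 4. Each library's 95% Wilson interval spanned about a point to either side, for example 39.7 to 41.7% in distal sample 2. The share was higher in the distal sample of every pair, by 12.7, 3.49 and 2.18 percentage points. Its mean was 35.9 ± 7.32% distally against 29.8 ± 5.60% proximally (SD over 3 samples; p = 0.3 by the exact permutation test, 0.75 after adjustment). The ranges of the regions overlapped, and this share does not depend on the scaling between libraries. The family as a whole summed to 414 ± 55.6 CPM distally and 421 ± 52.1 CPM proximally (SD over 3 samples; exact permutation p = 0.8, adjusted 0.8).

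**Figure D3:**
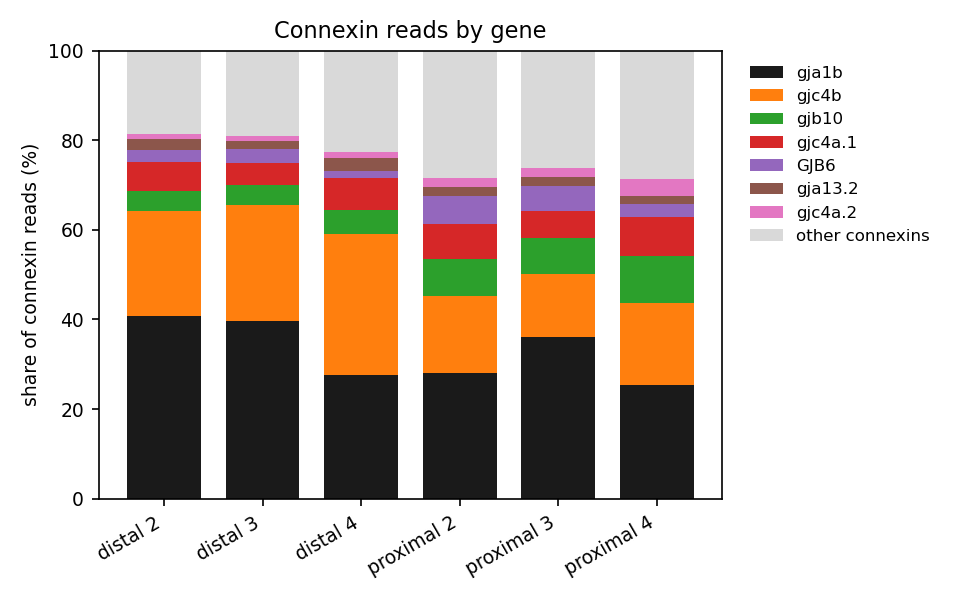
Share of all connexin reads (percent, vertical axis) taken by single connexin genes in the 6 libraries, on reads and not per length, with the remaining connexins summed in light grey. The black part is gja1b, from 25.3% in proximal sample 4 to 40.7% in distal sample 2; the orange part, gjc4b, is larger in every distal library.

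Of the 16 tested connexins, 1 was called distal-high and 5 proximal-high, or 6 of 16 where 29.7% of all genes were called. Their median log2 fold change was -0.53, compared with -0.01 over all tested genes. The distal gene was gjc4b (synonym cx43.4), known for its early embryonic expression. It had 99.4, 120 and 112 CPM in distal and 72.3, 66.0 and 67.6 CPM in proximal samples 2, 3 and 4. All 3 distal values lay above all proximal ones, a separation seen in 46.5% of tested genes, with a log2 fold change of 0.56 (SE 0.10; adjusted p = 0.0045 by edgeR). Without both samples numbered 3 its value was 0.48 and the adjusted p was 0.0543.

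gjb10 (synonym cx34.4) was called proximal-high. It had 19.0, 21.5 and 18.9 CPM in distal and 34.9, 38.4 and 38.2 CPM in proximal samples (log2 fold change -1.03, SE 0.10, adjusted p = 0.000254). On CPM the regions did not overlap, as in 46.5% of all tested genes. Epidermis markers were mixed: 3 of 7 were higher in proximal and 1 in distal tissue, beside 14.4% and 15.3% of all tested genes. Their median log2 fold change was -0.14. Their summed level was 22219 to 22809 CPM in distal and 44758 to 49071 CPM in proximal libraries. None of these markers was at 0, krt5 made up most of the sum, and their part in the difference of gjb10 was not tested.

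Also proximal-high were gjc4a.2, gjc4a.1 and one of the identifiers named GJA5. gjc4a.2 had 5.10 ± 0.427 CPM distally and 10.9 ± 2.84 proximally (log2 fold change -1.22, SE 0.22, adjusted p = 0.00457). gjc4a.1 had 25.1 ± 2.83 against 31.3 ± 2.65 CPM (log2 fold change -0.44, SE 0.13, adjusted p = 0.0419). This small difference lost its call in 7 of 9 fits with fewer samples and under scaling by library size alone, where its adjusted p was 0.0869. The GJA5 identifier ENSDARG00000069450 had 0.858 ± 0.120 against 1.69 ± 0.248 CPM (log2 fold change -1.09, SE 0.25, adjusted p = 0.0136). Its call was lost without distal sample 2 (adjusted p = 0.0557), without both samples numbered 2 or both numbered 3, and in DESeq2 with the block (adjusted p = 0.0585). gjb9a had 1.01 ± 0.309 against 0.997 ± 0.0946 CPM and was not called (adjusted p = 0.846).

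With the sample number as a block, 2 connexins were distal-high and 7 proximal-high, in a fit that called 23.3% and 25.1% of all tested genes in these directions. The added calls were gja1a, GJB6 and gja4. gja1a, the other copy of the Cx43 gene, had 7.64, 5.28 and 7.66 CPM in distal and 4.82, 4.02 and 3.40 CPM in proximal samples. Its log2 fold change was 0.63 (SE 0.22, adjusted p = 0.0609), and 0.62 with the block (SE 0.16, adjusted p = 0.0073). GJB6, whose human namesake encodes a connexin of skin and inner ear, had 11.3, 14.4 and 5.62 CPM in distal and 26.3, 26.0 and 10.9 CPM in proximal samples. Its log2 fold change was -1.12 (SE 0.39, adjusted p = 0.0611), and -1.13 with the block (SE 0.11, adjusted p = 4.6e-06). Like gja1b, it was lower in number 4, by a log2 difference of -1.17 (SE 0.12, edgeR adjusted p = 7.58e-05). In that comparison these were the 2 of 16 tested connexins called lower, and 0 were called higher. Over all tested genes 8.53% were called lower and 8.06% higher. gja4 (synonym cx39.4), needed for the stripe pattern of zebrafish, had 1.60 ± 0.415 against 2.33 ± 0.356 CPM (log2 fold change -0.66, SE 0.27, adjusted p = 0.105). Its adjusted p with the block was 0.0183 in edgeR and 0.175 in DESeq2, so that call was not made by DESeq2.

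Pigment cells, which use connexins to form stripes, were marked by genes higher in proximal tissue. Of 10 tested pigment identifiers, 7 were higher in proximal and 2 in distal tissue, beside 14.4% and 15.3% of all tested genes. Their summed level was 77.0 to 98.3 CPM in distal and 138 to 209 CPM in proximal libraries, with none at 0. Most of the distal sum was csf1ra, at 51.2 to 66.0 CPM, which was not called (edgeR adjusted p = 0.0673). Endothelial markers, which mark another cell type that uses connexins, summed to 62.8 to 71.8 CPM in distal and 66.0 to 113 CPM in proximal libraries, and 2 of 5 were higher in proximal tissue. Whether either bears on gja4 or GJA5 was not tested.

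**Figure D4:**
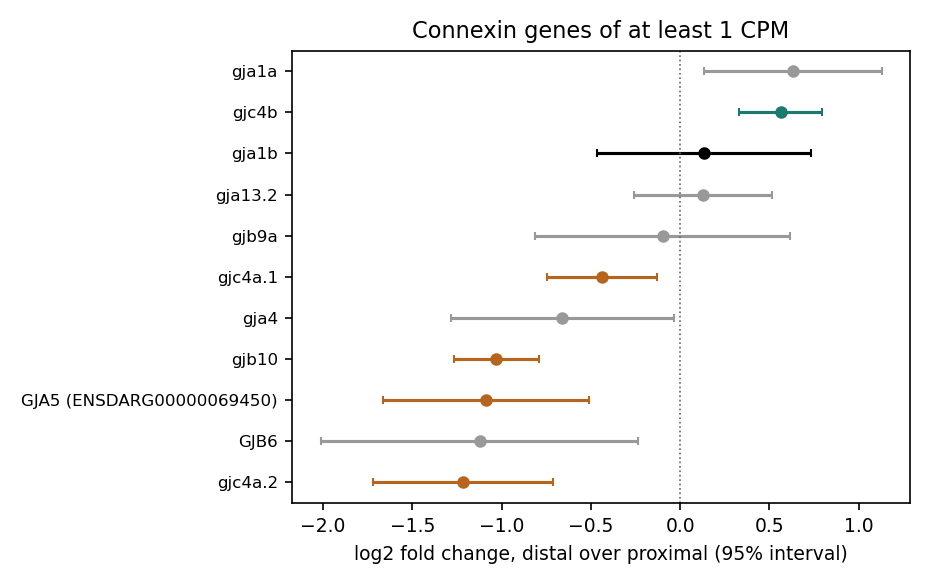
Log2 fold change of connexins of at least 1 CPM, distal over proximal, with 95% intervals from the unblocked edgeR fit (horizontal axis). Black marks gja1b, green an adjusted p under 0.05 with higher distal level, brown the same with higher proximal level, and grey no call; gjc4b is the 1 green gene, and gjb10, gjc4a.1, gjc4a.2 and a GJA5 identifier are brown.

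In the RefSeq annotation of assembly GRCz12tu, which is not the build of the files and was used here for gene order only, gja1b lies next to hsf2 on one side. On the other side follow gja13.2, gja12.2, gja12.1, gja13.1 and gja11, with tbc1d32 among them. The connexins of this row had far fewer reads than gja1b. gja13.2 had 9.66 ± 1.19 CPM distally and 8.16 ± 1.45 proximally (log2 fold change 0.13, SE 0.17, adjusted p = 0.607). gja12.2 had between 5 and 14 reads in a library and did not pass the filter, and gja12.1, gja13.1 and gja11 had at most 2. The synonyms in that annotation exchange the names gja13.1 and gja13.2, so which of these identifiers is which is uncertain.

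Identifiers matched to genes linked to Cx43 in fins were mostly distal-high, while 6 of the 18 tested did not pass the test. A list of 17 symbols drawn from what is known of Cx43 in fins matched 19 identifiers, of which 18 were tested. Of these, 11 were distal-high and 1 proximal-high, beside 15.3% and 14.4% of all tested genes. The median log2 fold change was 0.73. With the block 12 were distal-high and 2 proximal-high, beside 23.3% and 25.1% of all tested genes. Both identifiers of NRP2, of HAPLN1 and of BMPR1A are among the 11. For each of these pairs 1 copy was listed and both identifiers were matched, so the 11 include copies that were not listed. This and the other gene lists were chosen with earlier results of these data known, so the counts are a description only. Capitals mark identifiers whose copy letter the table does not give.

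The guidance molecule gene and the identifiers matched to its receptors were all higher in distal tissue. sema3d had 46.0, 44.3 and 34.1 CPM in distal and 6.73, 7.95 and 3.77 CPM in proximal samples 2, 3 and 4. Its regions did not overlap on CPM, as in 46.5% of all tested genes. The distal level was 6.23-fold higher (log2 fold change 2.64, SE 0.24, edgeR adjusted p = 0.000156). plxna3, a plexin that serves as a semaphorin receptor, had 52.2, 47.9 and 35.9 CPM in distal and 12.2, 14.9 and 6.66 CPM in proximal samples (log2 fold change 1.90, SE 0.26, adjusted p = 0.00121). Both identifiers of NRP2, a neuropilin co-receptor, were higher in distal tissue, with log2 fold changes of 0.92 (SE 0.15, adjusted p = 0.00282) and 0.71 (SE 0.18, adjusted p = 0.0187). The call of the second was lost without distal sample 2, distal sample 3 or proximal sample 2, and both calls were lost without the pair numbered 2.

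The hyaluronan matrix genes split. hapln1a, which links hyaluronan to proteoglycans, had 197, 239 and 178 CPM in distal and 188, 331 and 57.8 CPM in proximal samples. The proximal samples spanned the whole distal range and its log2 fold change was -0.01 (SE 0.48; adjusted p = 0.995). Both identifiers named HAPLN1 were higher in distal tissue, at 40.3 ± 9.97 against 4.88 ± 0.928 CPM (log2 fold change 2.93, SE 0.23) and 3.38 ± 0.375 against 0.357 ± 0.114 CPM (log2 fold change 3.11, SE 0.29). The proteoglycan gene vcana had 109, 124 and 38.1 CPM in distal and 8.76, 9.92 and 3.07 CPM in proximal samples (log2 fold change 3.52, SE 0.52, adjusted p = 0.00171).

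Its copy vcanb had 77.4 ± 18.3 against 42.4 ± 9.03 CPM (log2 fold change 0.76, SE 0.21, adjusted p = 0.0268), a call lost without any 1 of 4 single samples (distal 2 or 4, proximal 2 or 4) and without the pair numbered 2 or 4. The hyaluronan synthase gene has2 had 34.6 ± 13.7 against 10.9 ± 4.71 CPM (log2 fold change 1.56, SE 0.37, adjusted p = 0.0159), and without distal sample 2 the adjusted p was 0.0525; it also lost its call without the pair numbered 2 or 3. The hyaluronan receptor gene cd44a was the 1 proximal gene of the list, with 150 ± 34.8 against 339 ± 48.7 CPM (log2 fold change -1.30, SE 0.19, adjusted p = 0.00165). has1, with 2.60 ± 1.36 against 1.44 ± 0.365 CPM, did not pass the test, and has3 had too few reads to be tested.

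The cohesin genes esco2 and smc3, placed upstream of Cx43, and the cohesin gene rad21a were not called by edgeR without the block. smc3, a cohesin subunit gene, had 151 ± 8.14 CPM distally and 134 ± 8.99 proximally (log2 fold change 0.05, SE 0.09, adjusted p = 0.695). rad21a, another subunit gene, had 222 ± 8.55 against 203 ± 6.38 CPM (log2 fold change 0.00, SE 0.09, adjusted p = 0.984). On CPM, before TMM scaling, every distal value of both subunit genes lay above every proximal one. The regions were apart in this way in 46.5% of all tested genes. esco2, the cohesin acetyltransferase gene, had 15.0, 15.9 and 10.8 CPM in distal and 24.4, 23.6 and 12.3 CPM in proximal samples (log2 fold change -0.65, SE 0.25, adjusted p = 0.0869). With the number as a block its log2 fold change was -0.62 (SE 0.11, adjusted p = 0.00054), and the proximal sample was the higher of every pair. Both BMPR1A identifiers, for a Bmp receptor, were distal-high (log2 fold changes 0.73 and 0.43); the second lost its call without distal sample 3 or 4, proximal sample 2, or the pair numbered 2 or 3. The chaperone gene hspa5 was not called (0.35, SE 0.12, edgeR adjusted p = 0.0695), but was with the block (edgeR adjusted p = 0.00491). DESeq2 called hspa5 without the block (adjusted p = 0.0469).

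**Figure D5:**
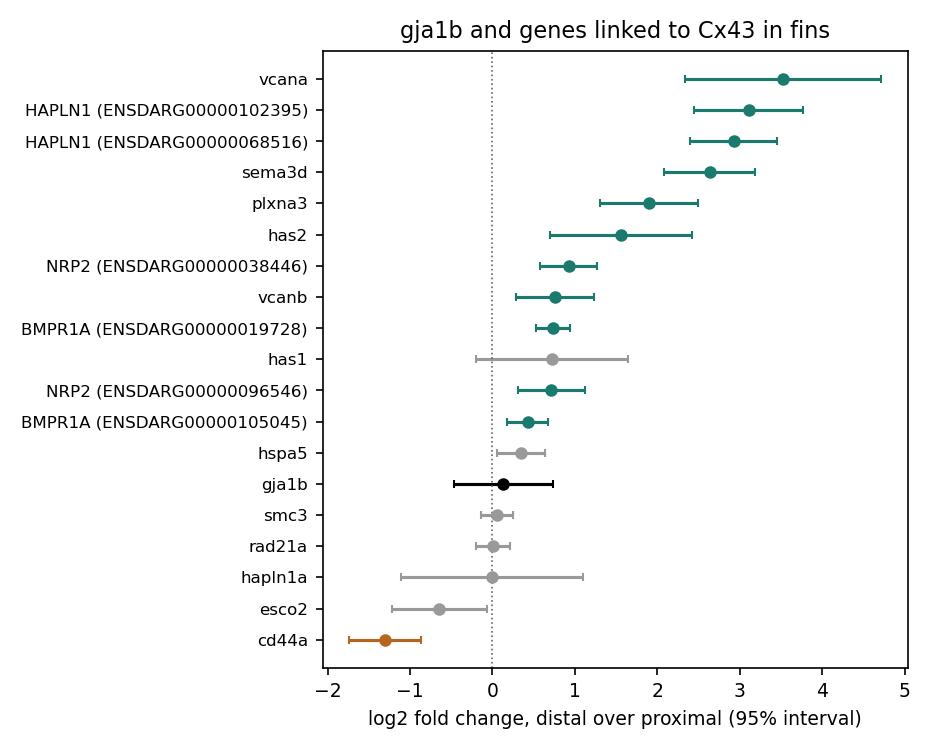
Log2 fold change, distal over proximal, of gja1b (black) and of 18 tested identifiers matched to genes linked to Cx43 in fins. Bars are 95% intervals from the unblocked edgeR fit. Green genes were called higher in distal tissue, the brown gene cd44a higher in proximal tissue, and grey genes were not called; gja1b lies between hspa5 and smc3.

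In the comparison of sample number 4 with the others, 7 of the 18 were lower and 1 was higher, where 8.53% and 8.06% of all genes were. The lower ones were sema3d (log2 difference -0.54), one NRP2 identifier (-0.37), plxna3 (-0.64), hapln1a (-1.05), vcana (-1.56), has2 (-1.02) and esco2 (-0.69). The higher one was cd44a (0.32).

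Genes for proteins that bind or regulate Cx43 in vertebrate cells were mixed. Of 17 identifiers, 5 were distal-high and 1 proximal-high, where 15.3% and 14.4% of all tested genes were, or 29.7% in either direction. Their median log2 fold change was -0.0040. The proximal gene was cav1, for the membrane scaffold caveolin, at 155 ± 28.7 against 601 ± 115 CPM (log2 fold change -2.08, SE 0.20, adjusted p = 0.000195). The distal ones were the kinase genes src (0.57, SE 0.12) and both PRKCA identifiers (1.096, SE 0.22, and 1.35, SE 0.16), and the adhesion genes ctnnb1 (0.63, SE 0.11) and cdh2 (0.94, SE 0.17), given as log2 fold changes. Without the pair numbered 2 the calls of src, cdh2 and the first PRKCA identifier were lost, and without the pair numbered 3 that of src. The zonula occludens scaffold genes TJP1, tjp1b and tjp3 were among the 11 not called, whose log2 fold changes ran from -0.43 (tjp3) to 0.23. With the block 5 were distal-high and 3 proximal-high, beside 23.3% and 25.1% of all tested genes. The added calls were tjp3 (-0.42, edgeR adjusted p = 0.00115) and the kinase gene mapk3 (-0.25, edgeR adjusted p = 0.0274), both also called by DESeq2 with the block.

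Pannexins form single-membrane channels and are not connexins. Of 4 tested identifiers, 1 was called between the regions, where 29.7% of all tested genes were. This was PANX3, known from skeletal cells and also on the osteoblast list. It had 50.8 ± 8.38 CPM distally and 17.3 ± 7.04 proximally (log2 fold change 1.44, SE 0.28, edgeR adjusted p = 0.00618). The more abundant PANX1 identifier had 29.7 ± 3.80 against 25.1 ± 5.09 CPM (log2 fold change 0.13, SE 0.16, adjusted p = 0.594). The rarer one, at 1.08 ± 0.504 against 0.353 ± 0.161 CPM, was called distal-high with the block in edgeR (adjusted p = 0.00301) but not in DESeq2 (adjusted p = 0.0696). In number 4, 3 of the 4 pannexins were lower, where 8.53% of all tested genes were.

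Channel, transporter and calcineurin genes linked to fin size gave 3 distal and 3 proximal calls among 16 tested identifiers, close to the 15.3% and 14.4% over all genes. The distal ones were the transporter genes SLC12A7 (log2 fold change 1.38, SE 0.17) and both SLC43A2 identifiers (1.097, SE 0.29, and 1.11, SE 0.17). The proximal ones were the calcineurin subunit gene PPP3CC (-0.53, SE 0.11) and the calcineurin regulators rcan2 (-0.40, SE 0.11) and rcan3 (-0.60, SE 0.17). The calls of the first SLC43A2 identifier, rcan2 and rcan3 were each lost in 5 or more of the 9 fits with fewer samples, that of PPP3CC without the pair numbered 2 or 3, and that of rcan2 also under library size alone. With the block 5 were distal-high and 5 proximal-high, beside 23.3% and 25.1% of all genes. Neither KCNK5 potassium channel identifier was called, at 7.48 ± 1.83 against 6.81 ± 1.77 CPM and 6.27 ± 0.999 against 8.03 ± 0.812 CPM, though the latter was with the block in edgeR (adjusted p = 0.0182) but not in DESeq2 (adjusted p = 0.0857). Both KCNH2 identifiers had too few reads to be tested.

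Ray joints, whose spacing is short in the Cx43 mutants, were followed by a further list. Of 8 tested joint genes, 6 were distal-high and 1 proximal-high, beside 15.3% and 14.4% of all tested genes. Their median log2 fold change was 1.30, against -0.01 over all tested genes. The name evx1, of a transcription factor gene needed for joints in zebrafish, is carried by a tested and an untested identifier. The tested one, written EVX1, had 2.76 ± 0.425 against 0.913 ± 0.319 CPM (log2 fold change 1.48, SE 0.28, edgeR adjusted p = 0.006). The untested one, written evx1, had 0 reads in every library, and which of them is the joint gene is uncertain. The other distal-high genes were pthlha (2.11, SE 0.17), for a secreted hormone-like peptide, and the matrix protease gene mmp9 (1.57, SE 0.18). The transcription factor genes DLX5 (1.49, SE 0.19), hoxa13a (1.12, SE 0.10) and trps1 (0.68, SE 0.18) were also distal-high. gdf5 had 1, 1 and 0 reads in distal and 16, 11 and 12 reads in proximal samples, so its fitted fold change has an uncertain size. EVX1 lost its call without the pair numbered 2, and trps1 in 4 of the 9 fits with fewer samples.

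The genes whose profile over the 6 libraries was most like that of gja1b were found by the root mean square distance between log2 CPM profiles, each centred on its own mean. The 10 nearest of 18454 genes were dnase2b, pick1, znf1185, zgc:174904, ENSDARG00000099890, tbc1d31, cax2, wfikkn2a, myo10l1 and ogfod3. Their distances were 0.06 to 0.10 on the log2 scale, against a median of 0.46 over all genes and a spread of the gja1b profile itself of 0.36. All had far fewer reads than gja1b; pick1 had 13.7 ± 4.11 CPM distally and 11.8 ± 3.21 proximally. None was called between the regions, and 6 were called lower in number 4, where 8.53% of all tested genes were. Both counts come with the choice of likeness and are a description only. No connexin was among them.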

How the data were processed

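RNA of 3 distal and 3 proximal samples of regenerating zebrafish caudal fin was isolated in TRIzol, and sequencing libraries were built with the Kapa stranded mRNA-Seq kit (per the labels). The deposited files hold raw counts of reads per Ensembl gene. The submitters' processing notes name TopHat2, HTSeq and the build GRCz11 (danRer11); versions, annotation release and strand setting are not given in the sources used here. Reads aligned to more than 1 place (30.2 to 38.9% of the listed total) or to no gene (10.8 to 14.6% of uniquely aligned reads) were not counted to genes, which lowers genes with near-identical copies. A line without an identifier equalled the gene total and was left out. Of 31901 identifiers, 29178 had a symbol in the table used. A listed symbol with a copy letter that the table lacks was matched without it. No sequences are shown, since none was used here.

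Genes were filtered with filterByExpr (minimum 10 counts; 18455 genes kept), scaled by TMM and tested with edgeR 4.0.16 in R 4.3.3 (quasi-likelihood test over all 6 samples, no block, Benjamini-Hochberg adjustment, threshold 0.05). The SE is the absolute log2 fold change divided by the root of F. CPM are per 1000000 gene-assigned reads; 3 counts correspond to 0.127 to 0.149 CPM. Profiles used log2 CPM with a prior count of 2. Intervals of reads are 95% exact Poisson or Wilson intervals and cover counting error only. Same-numbered samples deviated together from their region means (correlations 0.42, 0.56 and 0.68), so the numbers were taken as pairs from the titles; the block is an alternative. The other alternatives were DESeq2 1.42.0, limma-voom 3.58.1, other scalings and filters, and samples left out. The comparison of number 4 with numbers 2 and 3, and a scaling that leaves out the 100 most abundant genes, were added after seeing the data. Code was tested on simulated data. gja1b and the gene lists were chosen with earlier results of these data known. Named are gja1b, connexins of at least 1 CPM, genes linked to Cx43, called members of the other lists, and the 10 genes most like gja1b; members not called are mostly given as counts and ranges, and some members are counted but not reported here by name.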

Additional observations from a re-analysis of the deposited data

How the results depend on the processing

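gja1b had no call in any of 18 alternative fits. The gja1b log2 fold change kept its sign under every other scaling, filter and test and with the replicate block (0.12), and turned in 3 of the 9 fits with fewer samples, which ranged from -0.031 to 0.38 (-0.012 without distal sample 3, -0.026 without proximal sample 4 and -0.031 without the pair numbered 2). The CPM difference was 12.7 after TMM scaling and 6.62 to 50.6 with samples left out, and the difference in connexin share 2.83 to 10.3 points. As the number of genes past the threshold, the fits gave 5480 without the block, 8938 with it, and 2231 to 5244 with samples left out (2231 without both samples numbered 2, 2932 without both numbered 3). The number of called connexins was 6, with 9 under the block and a range of 3 to 6 with samples left out; it was 3 without both samples numbered 3. Scaling by library size alone moved the median of all genes by 0.12 toward distal tissue, and the calls to 3640 distal and 1924 proximal. Fold changes near 0 turned sign: hapln1a was 0.091 under library size alone, 0.29 with limma-voom, 0.26 with the replicate block and 0.28 with DESeq2 and the block; gjb9a was 0.022 and cax2 0.060 under library size alone. With samples left out the ranges were -0.43 to 0.62 for hapln1a, -0.37 to 0.081 for gjb9a, -0.26 to 0.21 for cax2, -0.046 to 0.36 for gja13.2, -0.021 to 0.054 for rad21a, -0.13 to 0.43 for dnase2b, -0.087 to 0.31 for pick1, -0.20 to 0.30 for znf1185, -0.11 to 0.44 for ENSDARG00000099890, -0.020 to 0.34 for tbc1d31, -0.21 to 0.29 for wfikkn2a and -0.24 to 0.32 for myo10l1. The causes were not tested. Of 44 called genes named besides gja1b, 0 changed sign, 19 lost the call in some fit with samples left out, and 3 in another setting. Levels and shares per kilobase were not run, since no transcript lengths were used.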
